A study of Mus musculus with 2 samples.

Results

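The annexins and the S100A proteins are 2 families that act downstream of calcium. They were followed here in primary mouse brain pericytes (PCs) kept in culture, at passage 5 (PC5) and at passage 20 (PC20). The genes were chosen by symbol alone, Anxa or S100a followed by a number, and 24 of the 31053 features in the deposited tables matched. Of these, 11 were annexins (Anxa1 to Anxa11) and 13 were S100A genes (S100a1 to S100a6, S100a8 to S100a11, S100a13, S100a14 and S100a16). Both cultures came from brains, without olfactory bulb, cerebellum and medulla, of wild type female C57BL/6N mice aged 6 to 8 weeks, with 6 brains pooled for each isolation. The cells were enriched by culture and not by sorting for a marker, first in an endothelial growth medium and then in a pericyte medium. The study's methods describe separate isolations for PC5 and PC20, so passage and isolation cannot be told apart, and each passage was 1 library. No replicate exists for either passage, no test was made, and every interval below covers counting error only.

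The cell filter required more than 1000 detected genes and less than 20% of UMIs from mitochondrial genes. A UMI is 1 captured RNA molecule, counted once by its molecular tag. This left 9950 of 10629 barcodes in PC5, with a median of 21700 UMIs, and 4749 of 4884 in PC20, with a median of 33424 UMIs. Kept cells of the 2 libraries had 20 barcode sequences in common. Because PC20 cells were deeper, shares of cells with a UMI were also read after each cell was thinned to 1 fixed number of UMIs, a little over 10000, which left 8847 PC5 and 4474 PC20 cells. The study checked the identity of its cultured PCs by PDGFRβ expression, and showed immunostaining of PCs at another passage. It also reported low RNA of canonical pericyte markers in cultured PCs. In RNA, the labelled cell type was only partly borne out by its markers here. Pdgfrb, the pericyte PDGF receptor, was at 44.6 counts per 1000000 UMIs (CPM) in PC5 and 5.43 in PC20, the mural gene Rgs5 was counted 405 times in PC5 and not in PC20, and Abcc9 had 1 UMI in each. Cspg4 (NG2) stood at 5.55 against 0.0994 CPM, while Anpep leaned to PC20, at 1.93 against 3.00 CPM. The fibroblast marker Col3a1 was at 1158 CPM in PC5 and 100.8 in PC20. The other listed fibroblast markers were almost absent from PC20, with Pdgfra at 88.6 and 0.131 CPM, Dcn at 51.3 and 0.167 and Lum at 3.57 and 0. The endothelial gene Cdh5 was at 168 and 0.0262 CPM, although the other endothelial markers Pecam1, Cldn5 and Tek were at or below 0.542 CPM in both. The simple epithelial keratin Krt18 was at 0.134 CPM in PC5 and 913 in PC20. The libraries therefore differed in much more than the genes described here, and the part of these differences in the values below was not tested.

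Annexins bind negatively charged phospholipids when calcium rises, and they take part in membrane repair, vesicle traffic and the anchoring of actin to the membrane. S100A proteins are small EF-hand proteins that mostly work as dimers and, once loaded with calcium, bind a target protein. The families meet in known complexes. S100a10, which is unusual in not needing calcium, binds Anxa2, and S100a11 binds Anxa1. In the brain, Anxa1 of endothelial cells is known to support the tight junctions of the blood brain barrier, and S100b marks astrocytes.

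Nearly all mouse S100A genes lie side by side on chromosome 3, whereas the annexin genes are scattered over the genome. The stretches before the start sites of 5 members are printed here because they stand for the patterns found below. S100a6 and S100a11 were higher in PC5, S100a4, a close neighbour of S100a6, was higher in PC20, and Anxa4 and Anxa5 are annexins that differed in opposite directions. They were picked after the values were seen. Each is the 150 bases before a RefSeq start site, from the RefSeq annotation of GRCm38.p6, written 5′ to 3′ on the strand of the gene, and 19 of the 24 members were matched by symbol in that table (those missing were Anxa3, Anxa6, S100a2, S100a10 and S100a14). Capitals mark the TATA-box motif with the letters TATAAA, the Sp1-type motif with the letters GGGCGG, the NF-Y-type motif with the letters CCAAT or the AP-1 motif with the letters TGANTCA, all searched on both strands. The positions are chr3:90612744-90612893 (plus strand) for S100a6, chr3:93520346-93520495 (plus) for S100a11, chr3:90603620-90603769 (plus) for S100a4, chr6:86793585-86793734 (minus) for Anxa4 and chr3:36475888-36476037 (minus) for Anxa5. The last line is the whole space between the GENCODE starts of S100a1 and S100a13, which point away from each other, at chr3:90514393-90514434, written on the plus strand. The RefSeq start of S100a1 lies further inside the gene, so the space between RefSeq starts is longer than the one printed.
S100a6: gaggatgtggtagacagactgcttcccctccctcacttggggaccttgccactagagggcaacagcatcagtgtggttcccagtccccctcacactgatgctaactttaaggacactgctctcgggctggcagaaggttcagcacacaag
S100a11: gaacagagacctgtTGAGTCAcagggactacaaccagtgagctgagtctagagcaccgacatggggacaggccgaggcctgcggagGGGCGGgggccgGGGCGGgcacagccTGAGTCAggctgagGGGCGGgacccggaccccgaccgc
S100a4: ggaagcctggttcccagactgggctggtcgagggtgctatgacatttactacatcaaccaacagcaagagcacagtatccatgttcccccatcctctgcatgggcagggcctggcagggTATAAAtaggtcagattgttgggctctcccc
Anxa4: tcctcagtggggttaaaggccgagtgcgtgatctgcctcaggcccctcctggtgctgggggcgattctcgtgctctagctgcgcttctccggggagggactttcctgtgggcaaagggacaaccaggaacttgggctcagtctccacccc
Anxa5: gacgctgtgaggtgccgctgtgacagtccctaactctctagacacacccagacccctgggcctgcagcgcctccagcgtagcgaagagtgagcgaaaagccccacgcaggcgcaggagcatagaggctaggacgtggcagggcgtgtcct
S100a1 to S100a13: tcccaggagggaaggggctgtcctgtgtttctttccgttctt

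These stretches were not built alike. The S100a11 stretch held 3 matches to GGGCGG and 2 to the AP-1 motif, with the nearest GGGCGG beginning 24 bases before the start. The S100a4 stretch held a TATA box that begins 31 bases before the start and no GGGCGG. In the S100a6, Anxa4 and Anxa5 stretches none of the 4 motifs was found, which says only that these letters are not in these 150 bases. The 42 bases between S100a1 and S100a13 held none of 5 motifs searched, the 4 above and the E box CACGTG.

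Over 250 bases before the start, the matched members had 26 RefSeq windows. TATAAA was in 23.1% of them against 12.4% of all 32851 windows, TGANTCA in 15.4% against 6.75%, GGGCGG in 30.8% against 32.7%, CCAAT in 11.5% against 33.8% and CACGTG in 7.69% against 6.02%. With 26 windows a single window is a large step, and several windows of Anxa4, Anxa7, Anxa9, S100a3 and S100a16 belong to 1 gene each. The motifs were chosen after the expression values were seen.

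The summed UMIs of the families differed in opposite directions, and a few S100A genes carried most of the molecules. The S100A genes together made up 1.65% of all UMIs in PC5 (16533 CPM) against 0.578% in PC20 (5781 CPM), and the log2 ratio of PC5 over PC20 was 1.52. The annexins together stood at 2117 CPM against 2846 CPM, and the log2 ratio of these sums was -0.43. It is not a shared direction, since of the 8 annexins taken as expressed below, 4 had a log2 ratio above 0 and 4 below. Anxa2, Anxa3 and Anxa5 held 77.9% of the annexin UMIs in PC5 and 69.9% in PC20. S100a6, S100a11 and S100a10 held 97.7% of the S100A UMIs in PC5 and 95.3% in PC20, so the family sum is in effect the sum of these genes. In thinned cells the median PC5 cell had 142 S100A UMIs, with a 10th percentile of 74 and a 90th of 317. The median PC20 cell had 50, with percentiles of 26 and 102. For the annexins the thinned medians were 21 UMIs a cell in PC5 and 30 in PC20.

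A gene was taken as expressed where 10% or more of cells in PC5 or in PC20 had a UMI, and as called where its log2 ratio passed 1 in either direction. Of the 24 members, 16 were expressed, 8 of each family. Among these 16, 4 were called higher in PC5 (25.0%) and 5 higher in PC20 (31.25%), and 7 lay between. Over all 10504 expressed genes, 17.9% were called higher in PC5 and 19.1% higher in PC20. With 16 genes these shares lie 1 or 2 genes above those of all expressed genes, and nothing particular to the members is read from them. The median log2 ratio was 0.93 for the expressed S100A genes, 0.04 for the annexins and -0.03 for all expressed genes. By family, all 4 members called higher in PC5 were S100A genes (S100a6, S100a11, S100a13 and S100a16). Those called higher in PC20 were Anxa1, Anxa3, Anxa4, S100a3 and S100a4.

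**Figure D1:**
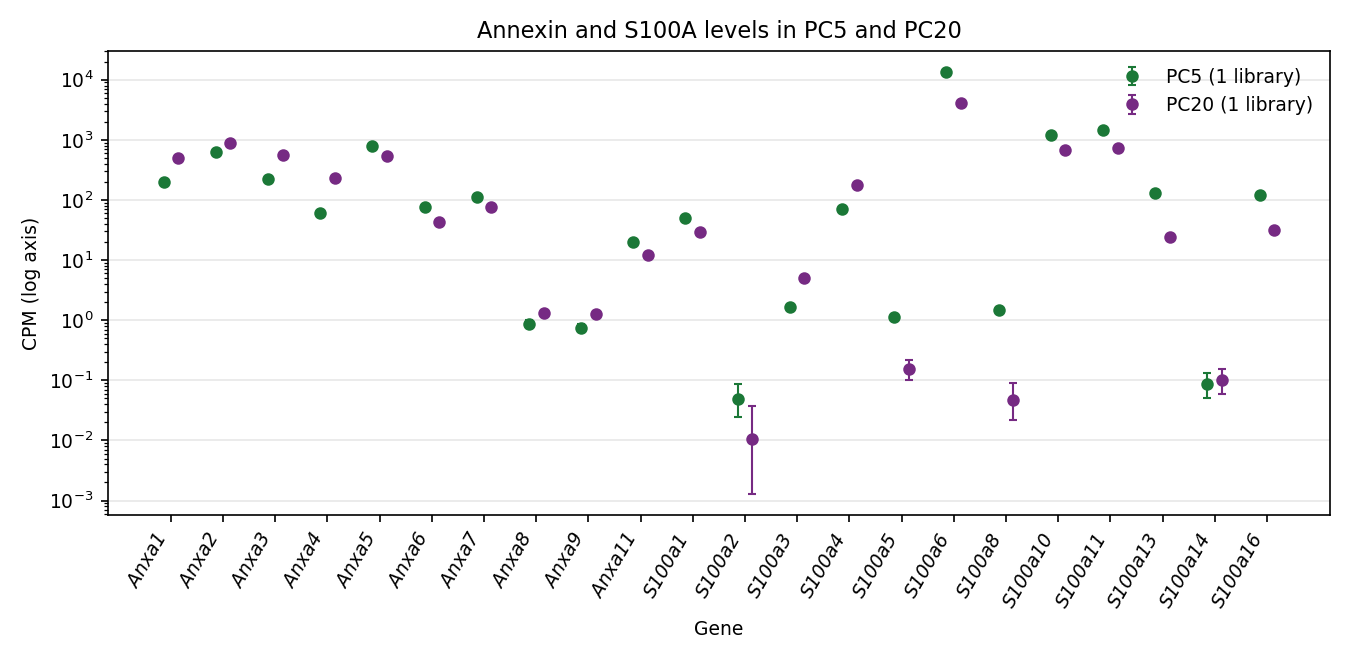
Level of each detected member in PC5 (green) and PC20 (purple), in counts per 1000000 UMIs (CPM) on a log axis, 1 library each, with exact 95% counting intervals as bars. S100a6 lies above every other member in both libraries, at 13487 and 4110 CPM, and S100a2 lies lowest in both, at 0.0493 and 0.0105 CPM. Anxa10 and S100a9 had no UMI in kept cells and are not drawn.

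S100a6 (ENSMUSG00000001025, chr3:90612882-90624181, plus strand), or calcyclin, is a calcium sensor known from growing cells and binds the calcyclin-binding protein Cacybp. Its level was 13487 CPM in PC5 (95% interval 13472 to 13502) against 4110 CPM in PC20 (4101 to 4119). The log2 ratio was 1.71, a 3.28-fold difference. The 3′ kit counts molecules by 1 end, so the level was not divided by gene length. On this scale S100a6 stood at rank 2 of all features in PC5 and rank 46 in PC20. It was found in every thinned PC5 cell and in all but 1 of 4474 PC20 cells, while the amount per cell differed. At means of 141 and 42.0 UMIs a cell this share is at its ceiling. It therefore cannot show whether the number of expressing cells differed. In thinned cells the median was 114 UMIs in PC5, with 10th and 90th percentiles of 56 and 264, against a median of 35 in PC20, with percentiles of 17 and 74. The middle of the distributions was thus well apart, although the 90th percentile of PC20 lay above the 10th of PC5.

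S100a11 and S100a10, known for their complexes with annexins, were both higher in PC5. S100a11 (ENSMUSG00000027907, chr3:93520488-93526287, plus strand), a partner of Anxa1 in membrane traffic and repair, stood at 1452 CPM against 723 CPM (PC5 against PC20, the order kept from here on). Its log2 ratio of 1.01 (1.00 to 1.01) lies at the threshold, and its call was lost under a stricter cell filter, where the ratio was 0.99. S100a10 (ENSMUSG00000041959, chr3:93555080-93564643, plus strand), the p11 light chain of the Anxa2 complex, stood at 1217 against 677 CPM, and its log2 ratio of 0.85 was not called. Their thinned shares were 98.3% of cells or more in both libraries.

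The strongest S100A differences in expressed genes were in less abundant members. S100a13 (ENSMUSG00000042312, chr3:90514435-90524581, plus strand), known for its part in the release of FGF1 and IL-1α without a signal peptide, stood at 133 against 24.2 CPM. The log2 ratio was 2.46 (2.41 to 2.50), a 5.48-fold difference. At equal depth 66.8% of PC5 cells and 17.6% of PC20 cells had an S100a13 UMI. S100a16 (ENSMUSG00000074457, chr3:90537254-90543151, plus strand), a broadly expressed member, stood at 119 against 32.1 CPM (log2 ratio 1.89), with a UMI in 62.8% and 24.4% of thinned cells. S100a1, best known as a regulator of calcium handling in heart muscle, stood at 49.6 against 28.9 CPM (log2 ratio 0.78, not called), with thinned shares of 38.9% and 23.2%. For these members the share of cells with a UMI differed as well as the level. At equal depth S100a13 had a mean of 1.42 and 0.242 UMIs a cell, against 141 and 42.0 for S100a6. With so few UMIs a cell, the share moves with the level. It does not show on its own a change in the number of cells with the transcript.

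S100a4 and S100a3 were the S100A genes on the other side. S100a4 (ENSMUSG00000001020, chr3:90603771-90606045, plus strand), also called fibroblast-specific protein, binds the heavy chain of nonmuscle myosin Myh9 and is a common marker of motile mesenchymal cells. It stood at 71.0 against 180 CPM, with a log2 ratio of -1.35 (-1.37 to -1.32). At equal depth 36.1% of PC5 cells and 67.6% of PC20 cells had an S100a4 UMI. S100a3, of hair follicles, stood at 1.67 against 4.96 CPM, with a log2 ratio of -1.57 (-1.75 to -1.39). It entered the expressed genes through PC20 alone, with a UMI in 15.8% of its cells before thinning, and fell to 1.46% of PC5 and 5.59% of PC20 cells after it. Exons of both genes overlap, on the same strand, those of a predicted gene, Gm42674, by 144 bases for S100a3 and 302 for S100a4. Gm42674 had 0 UMIs in either library. Reads that fit more than 1 gene are not assigned by the counting software, so the levels of S100a3 and S100a4 may be understated in both libraries.

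**Figure D2:**
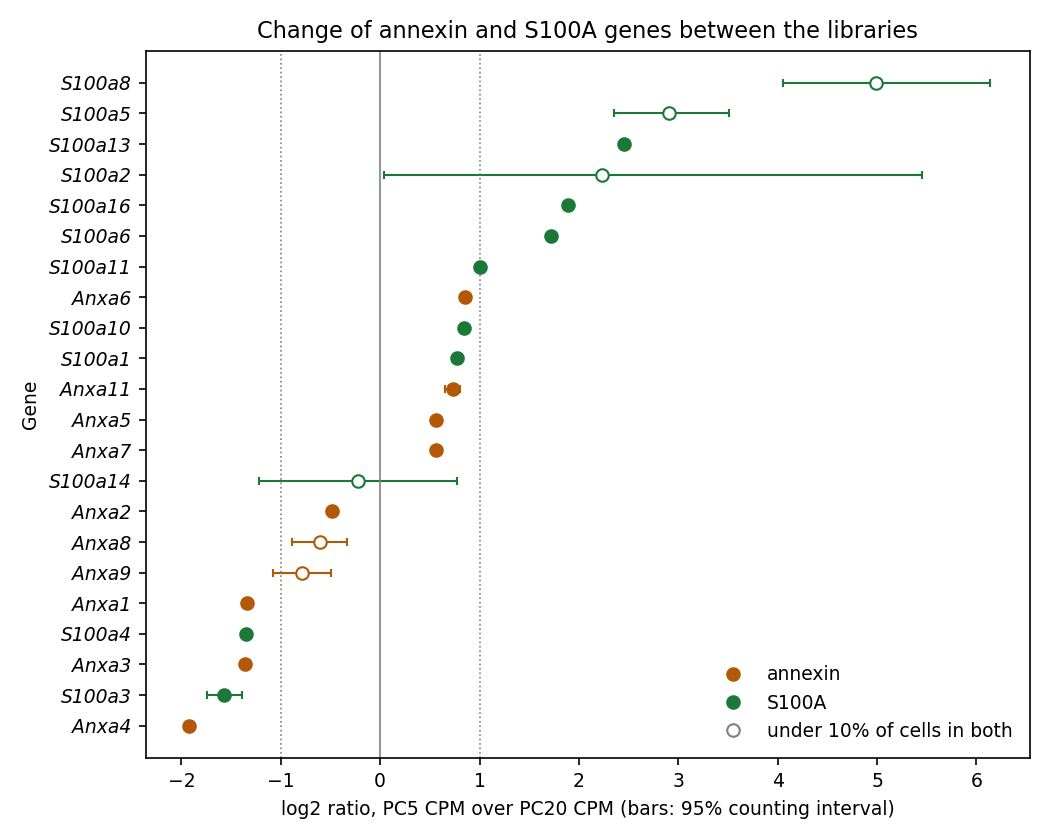
Log2 ratio of PC5 over PC20 CPM for the 22 members with a UMI in both libraries, with exact 95% counting intervals. Annexins are brown and S100A genes green, open points had a UMI in under 10% of the cells of both libraries, and dotted lines mark log2 ratios of -1 and 1. Past the right line, the filled points are all S100A genes, with S100a11 on the line at 1.01, and past the left line they are Anxa1, Anxa3, Anxa4, S100a3 and S100a4.

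The annexins split into a group that was higher in PC20 and a group that leaned to PC5. Anxa4 (ENSMUSG00000029994, chr6:86736840-86793584, minus strand), an annexin that forms ordered arrays on membranes and is abundant in epithelia, had the lowest log2 ratio of all expressed members. Its level was 59.9 CPM (58.9 to 61.0) against 228 CPM (225 to 230), which gives a log2 ratio of -1.92 and a 3.80-fold difference. An Anxa4 UMI was found in 45.5% of thinned PC5 cells and in 86.5% of thinned PC20 cells. Krt8 and Krt18, epithelial keratins, stood on the same side, at 98.4 and 913 CPM in PC20 and under 1 CPM in PC5, while the other epithelial markers Epcam, Cdh1, Krt5 and Krt14 were at or below 0.267 CPM in both libraries.

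Anxa1 and Anxa3 were also called higher in PC20. Anxa1 (ENSMUSG00000024659, chr19:20373428-20390944, minus strand), a glucocorticoid-induced protein that dampens inflammation through formyl peptide receptors, stood at 196 against 496 CPM. Its log2 ratio was -1.34 (-1.36 to -1.33), with thinned shares of 79.2% and 96.5%. Its receptor gene Fpr1 had no UMI in either library and Fpr2 had 9 UMIs in PC5 and 4 in PC20. Anxa3 (ENSMUSG00000029484, chr5:96793339-96845966, plus strand), known from the granules of neutrophils, stood at 219 against 564 CPM (log2 ratio -1.36), with thinned shares of 84.7% and 99.0%.

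Anxa2 (ENSMUSG00000032231, chr9:69453620-69491795, plus strand), which joins actin to membranes and, with S100a10, holds plasminogen at the cell surface, stood at 632 against 884 CPM. Its log2 ratio of -0.48 was not called. Anxa2 and its light chain S100a10 therefore lay on opposite sides of 0, as did Anxa1 and its partner S100a11. A pair of transcripts says nothing of how much of each protein is in complex.

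The other expressed annexins, Anxa5, Anxa6, Anxa7 and Anxa11, leaned towards PC5 without a call. Anxa5 (ENSMUSG00000027712, chr3:36448923-36475894, minus strand), which binds phosphatidylserine and is the probe used for dying cells, stood at 798 against 540 CPM (log2 ratio 0.56), with a UMI in 99.6% and 98.9% of thinned cells. Anxa6, an annexin with a duplicated core that acts in endocytosis and cholesterol traffic, stood at 76.2 against 42.3 CPM (log2 ratio 0.85). Anxa7, or synexin, known from the fusion of secretory granules, stood at 113 against 77.0 CPM (log2 ratio 0.56). Anxa11, which tethers RNA granules to lysosomes, stood at 20.2 against 12.2 CPM, with a log2 ratio of 0.73 (0.66 to 0.80). At equal depth Anxa7 had a UMI in 67.1% and 53.6% of cells, Anxa6 in 53.1% and 34.7% and Anxa11 in 19.1% and 11.9%, so each share was also higher in PC5.

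**Figure D3:**
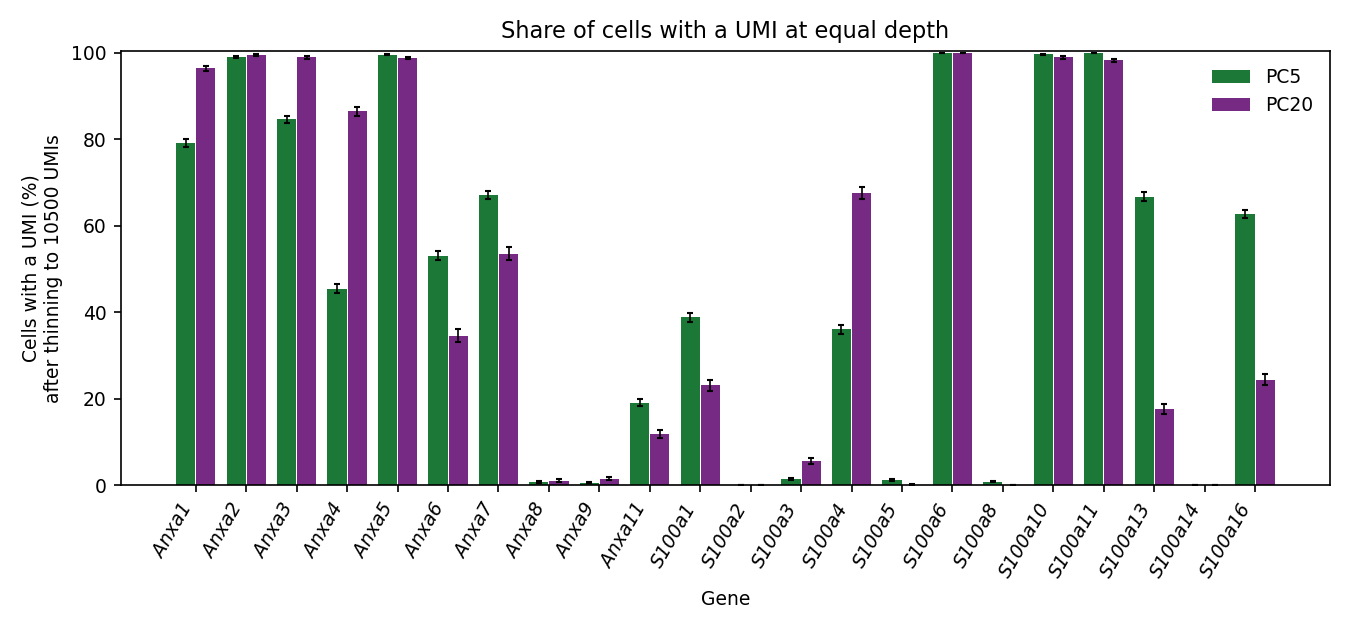
Share of cells with a UMI of each detected member after thinning every cell to the same number of UMIs, in 8847 PC5 cells (green) and 4474 PC20 cells (purple), with exact Clopper-Pearson 95% intervals. S100a13 and S100a16 stand out with taller PC5 bars (66.8% and 62.8%), Anxa4 and S100a4 with taller PC20 bars (86.5% and 67.6%), and Anxa2, Anxa5, S100a6, S100a10 and S100a11 are near 100% in both.

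The remaining members, Anxa8, Anxa9, Anxa10, S100a2, S100a5, S100a8, S100a9 and S100a14, 8 in all, were under the detection minimum. As a measure of stray RNA, genes of other lineages such as Hbb-bs and Snap25 had a UMI in at most 0.0565% of thinned PC5 cells and 0.0671% of thinned PC20 cells. Such genes cannot measure stray RNA from genes that some of the cultured cells express. Anxa10, an annexin of the stomach, and S100a9 had 0 UMIs in kept cells of both libraries, which allows up to 0.0134 CPM in PC5 and 0.0157 in PC20. S100a2, an epithelial member, had 11 UMIs against 2, and S100a14, also of epithelia, had 19 in each, both close to that background.

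Anxa8 and Anxa9, the latter an atypical annexin that has lost its calcium sites, were rare but above the shares of the genes of other lineages. Anxa8 was at 0.861 CPM in PC5 and 1.31 in PC20, with a UMI in 0.769% and 1.10% of thinned cells. Anxa9 was at 0.740 and 1.27 CPM, with 0.689% and 1.498%. Anxa9 overlaps 6330562C20Rik on the same strand, which had 323 and 411 UMIs, so its count is uncertain. S100a5, a brain and olfactory member, had 254 UMIs against 29, with a log2 ratio of 2.91 (2.35 to 3.52), spread over 250 and 28 cells.

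S100a8, which pairs with S100a9 as calprotectin in neutrophils, had 334 UMIs in 158 PC5 cells and 9 UMIs in 8 PC20 cells. A single PC5 cell held 62 of the PC5 UMIs. The 1% of PC5 cells with most S100a8, 100 cells, held 82.6%. Such a share is high by construction where 158 cells are positive. Its partner S100a9 was at 0 in both libraries. The neutrophil markers Ly6g, Ngp, Camp, Mpo and Elane summed to 0.0269 CPM in PC5 and 0.0262 in PC20, with 3 and 4 of the 5 at 0. The log2 ratio of 4.99 (4.05 to 6.13) rests on a small part of the cells, 1.59% of PC5 and 0.168% of PC20 before thinning.

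Along chromosome 3, the expressed members that were higher in PC20, S100a3 and S100a4, lay between members that were higher in PC5. S100a1, S100a13, S100a14, S100a16, S100a3, S100a2, S100a4, S100a5, S100a6, S100a8 and S100a9 follow each other in this order. S100a9, the last of the row, begins 182 kb from the first base of S100a1. S100a11 and S100a10 lie much further on, from 3009 kb. Between S100a6 and S100a8 lies S100a7a, whose symbol falls outside the rule, rare and lower in PC5 (0.838 against 2.15 CPM, log2 ratio -1.36). S100a4 (log2 ratio -1.35) begins at 92.7 kb and S100a6 (1.71) at 102 kb, on the same strand, with the rare S100a5 between them. S100a1 and S100a13, on opposite strands with 42 bases between their GENCODE starts, were both higher in PC5, but by 0.78 and 2.46. The gap before S100a11 holds the epidermal differentiation genes, such as the loricrin, involucrin and small proline-rich genes. Of the 62 protein-coding genes that lie between members, 1 was expressed, Crct1, with 761 CPM in PC5 and 0.298 in PC20. Crct1 passed the detection minimum through PC5 alone. In PC5, the cornified envelope gene Ivl was at 4.68 CPM and Sprr1a at 5.71 CPM, both at or under 0.126 CPM in PC20.

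**Figure D4:**
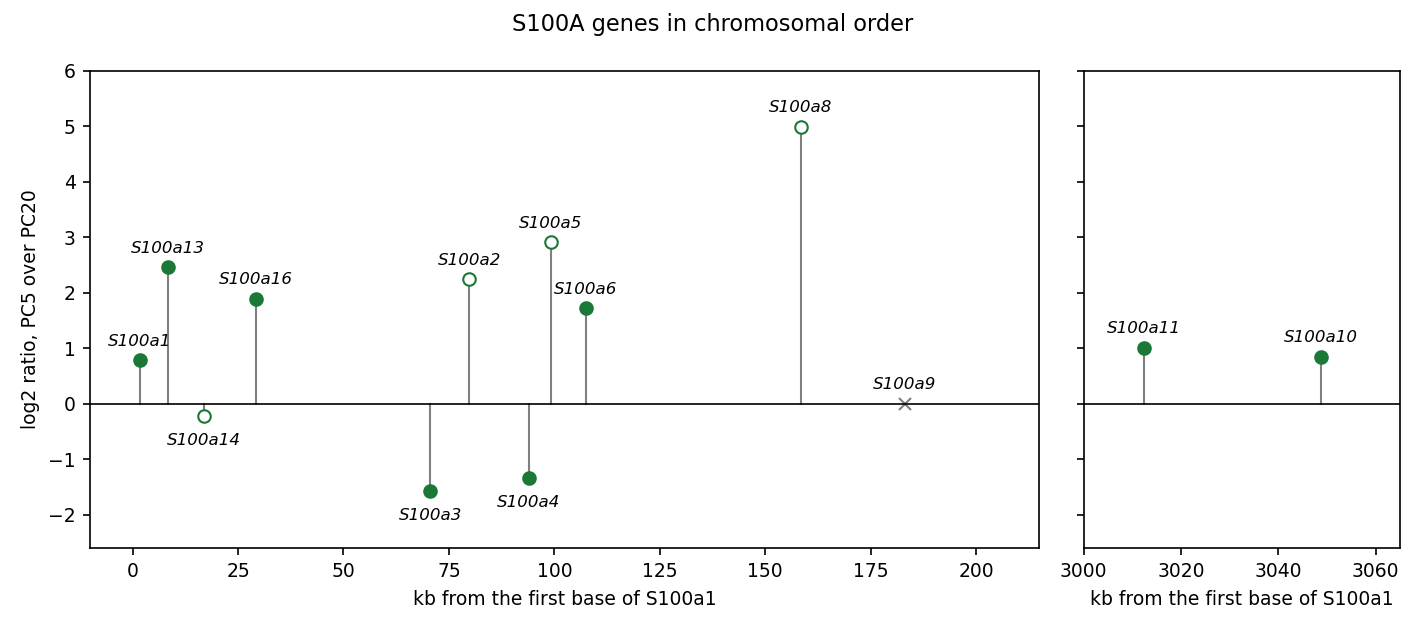
Log2 ratio of PC5 over PC20 for each S100A gene against its distance in kb from the first base of S100a1, in a left panel for the main cluster and a right panel for S100a11 and S100a10. Filled points are expressed members, open points had a UMI in under 10% of cells of both libraries, and the cross is S100a9, with 0 UMIs. S100a3 and S100a4 point down between neighbours that point up.

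Cells of 1 library also differed among themselves, and for several members by more than most genes of like mean. For a gene with random sampling of molecules alone, the variance of UMIs over thinned cells divided by the mean is about 1. For S100a4 it was 4.99 in PC5, where genes with a mean within 1.5-fold had a median of 1.12, and 3.66 in PC20, where they had 1.22. The highest thinned PC5 cell had 49 S100a4 UMIs, while the median cell had 0. For Anxa1 the values were 2.58 against 1.31 in PC5 and 3.00 against 1.59 in PC20. Anxa4, Anxa6, Anxa7 and Anxa11 lay between 1.02 and 1.35 in both libraries, close to genes of like mean. For S100a6 the values were 64.9 against 44.9 in PC5, where just 3 genes had a like mean, and 20.1 against 2.79 in PC20. For S100a10 they were 7.35 against 2.64 and 3.19 against 1.79, and for S100a11 6.61 against 3.20 and 5.77 against 1.86.

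The abundant S100A genes varied together over cells. These correlations describe 8847 PC5 cells and 4474 PC20 cells of 1 library each, all thinned to the same depth, and carry no test. Pearson's r was 0.70 in PC5 and 0.58 in PC20 for S100a6 with S100a10, 0.69 and 0.57 for S100a10 with S100a11, and 0.65 and 0.71 for S100a6 with S100a11. S100a13 went with S100a6 at 0.40 in PC5 and 0.22 in PC20. S100a4 went with S100a6 at 0.28 in PC5 and 0.59 in PC20. It went with S100a11 at 0.23 and 0.49, and with S100a10 at 0.24 and 0.36. In PC20 S100a4 thus varied with the abundant genes, most with S100a6, although its overall direction between the libraries was opposite to theirs. The known complexes showed weaker values than the pairs of S100a6, S100a10 and S100a11. They were 0.23 and 0.35 for Anxa2 with S100a10 and 0.20 and 0.37 for Anxa1 with S100a11. Among the 28 annexin pairs the median r was 0.02 in PC5 and 0.03 in PC20, against 0.21 and 0.18 among the 28 S100A pairs. Counting noise holds r down where UMIs are few. In thinned PC5 cells the mean was 0.620 UMIs for Anxa4 and 0.215 for Anxa11, against 140.9 for S100a6. Values of r are therefore not on 1 scale for rare and abundant members, or for a member whose level differed between the libraries.

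**Figure D5:**
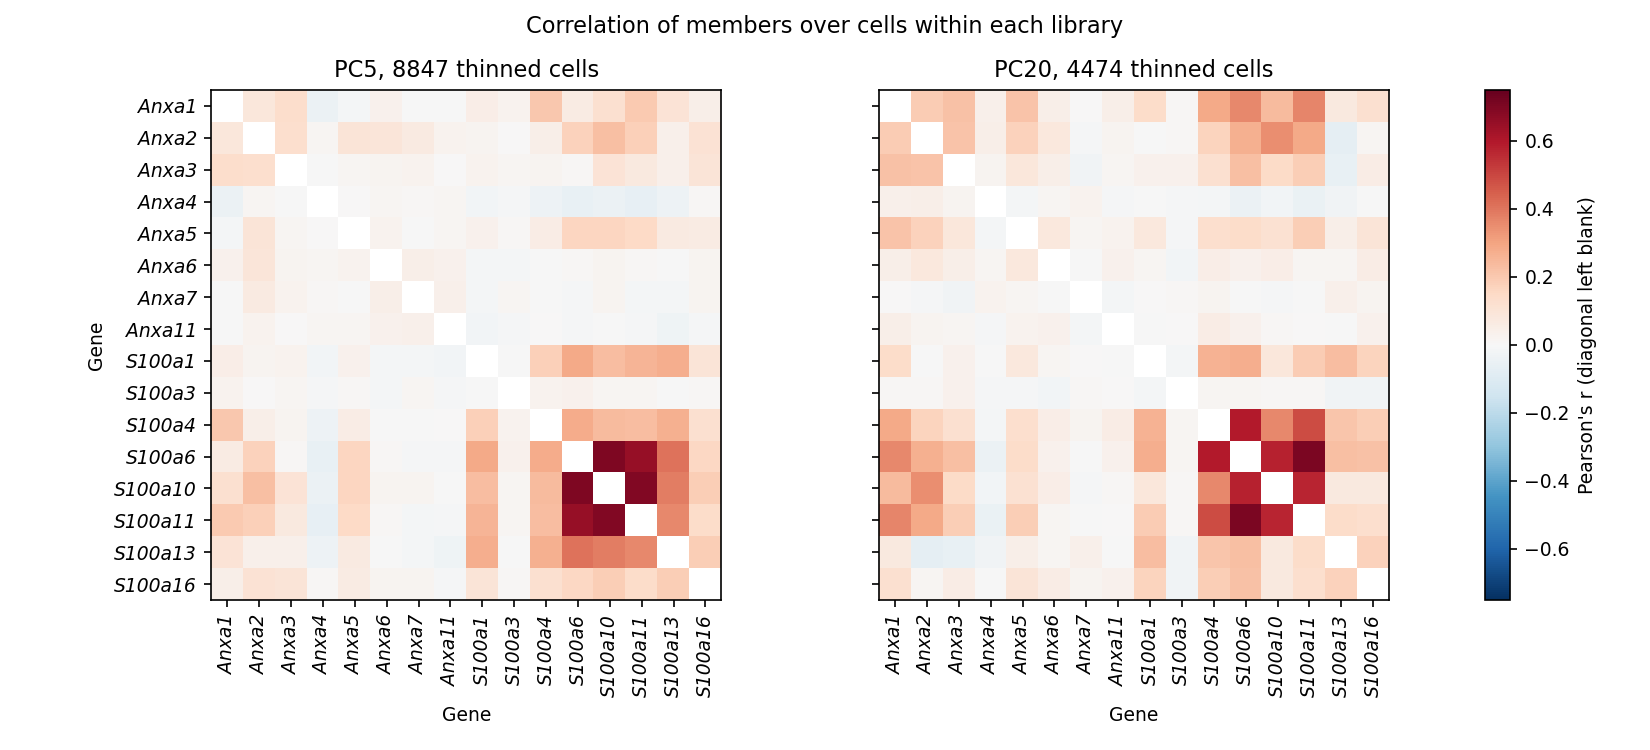
Pearson's r between the 16 expressed members over thinned cells of PC5 (left) and PC20 (right), on a color scale from blue (negative) through white (0) to red (positive). The dark block is S100a6, S100a10 and S100a11, with r from 0.57 to 0.71 in the 2 libraries. In PC20 S100a4 had r from 0.36 to 0.59 with these genes. The annexin block at the upper left is pale in both libraries.

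Within each library, several members differed with the state of the cell. States were read from a UMI of Mki67 or Top2a (cycling), Acta2 (smooth muscle actin) or Cdkn1a (the cell cycle inhibitor p21) in thinned cells, and the fold is between cells with and without it. Cycling cells were 35.6% of PC5 and 58.4% of PC20. They had less S100a1, S100a13, S100a16 and S100a4 in both libraries. For S100a1 the log2 ratio of cycling over other cells was -0.35 in PC5 and -0.88 in PC20. For S100a13 it was -0.36 and -0.89, for S100a16 -0.16 and -0.67, and for S100a4 -0.21 and -0.37. S100a6 differed less, at -0.04 and -0.20. The unthinned cells that lacked both cycling genes were 5475 in PC5 and 1321 in PC20. In them the differences between the libraries stayed on the same side for all 16 expressed members. The log2 ratios were 2.18 for S100a13, 1.55 for S100a16, 0.49 for S100a1 and -1.47 for S100a4. This split was not made at equal depth, as PC20 cells were deeper.

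Cells with an Acta2 UMI, 28.2% of PC5 and 18.6% of PC20, had more S100a6, S100a11, S100a10, S100a4 and Anxa1, among other members. The log2 ratio over cells without it was 0.20 in PC5 and 0.47 in PC20 for S100a6, 0.18 and 0.58 for S100a11, 0.20 and 0.34 for S100a10, 0.35 and 0.53 for S100a4 and 0.34 and 0.46 for Anxa1. In PC20 the less abundant S100a1, S100a13 and S100a16 were as much higher, by 0.50, 0.48 and 0.51. In PC5 they were at 0.052, 0.0086 and 0.066. Anxa5 was higher by 0.19 in PC5 and 0.20 in PC20. Anxa4 was slightly lower in cells with an Acta2 UMI, at -0.09 and -0.16. Acta2 itself was at 62.8 CPM in PC5 and 49.2 in PC20. The other listed smooth muscle markers were Tagln, at 219 and 0.230 CPM, and Myh11, at 0.206 and 0.0680 CPM. An Acta2 UMI may therefore not mark the same state in both libraries. A Cdkn1a UMI was in 92.9% of thinned PC5 cells and 65.5% of PC20 cells. With it S100a13 was higher, by 0.34 and 0.45, and Anxa1 lower, at -0.26 and -0.18. For the 16 expressed members all within-library differences were smaller than a log2 ratio of 1. Of the rare members, S100a8 passed it in cycling cells of PC5 (-1.37, -2.04 to -0.75), on 26 UMIs against 122 in other cells. These UMIs lay in 80 thinned PC5 cells. The variance over the mean was 5.51, a spread between cells that the interval leaves out. For the called members the within-library differences were smaller than the difference between the libraries. The sizes are not on 1 footing, since a cell without a UMI of a state gene can still be in that state. The part of cell state in the differences between the libraries was not tested. For S100a1 the cycling difference in PC20 (-0.88) was larger in size than that between the libraries (0.78).

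Genes known to bind annexins or S100 proteins were called at about the rate of all genes. Of 19 listed, 15 were expressed, with 3 called higher in PC5 and 3 higher in PC20, where 17.9% and 19.1% of all expressed genes were called. The median log2 ratio of the list was -0.58, against -0.03 for all expressed genes. Those called higher in PC5 were the repair protein Dysf (log2 ratio 2.11) and the plasminogen activators Plat (3.98) and Plau (5.43). Dysf and Plau passed the detection minimum through PC5 alone, with a UMI in 8.49% and 1.54% of PC20 cells before thinning. Plat was at 82.0 CPM in PC5 and 5.20 in PC20, and Plau at 22.3 and 0.518 CPM. Those called higher in PC20 were the urokinase receptor Plaur (-1.66), the phospholipase Pla2g4a (-2.76), whose product Anxa1 restrains, and Bsg (-2.36), a surface receptor of S100a9. The plasminogen system around the Anxa2 complex therefore held members on both sides. The targets Myh9 (of S100a4), Cacybp (of S100a6) and Ahnak (of the Anxa2 complex) had log2 ratios of -0.71, -0.66 and 0.16, with no call.

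Of 19 other EF-hand and calcium sensor genes listed, 17 were expressed, with 6 called higher in PC5 and 0 higher in PC20, beside 17.9% and 19.1% of all expressed genes. Their median log2 ratio was 0.85, beside -0.03. The 6 were Chp1 (2.43), Efhd2 (1.78), the endoplasmic reticulum proteins Rcn2 (1.69) and Rcn3 (1.36), the protease Capn1 (1.47) and the calmodulin gene Calm3 (1.00). The non-A member S100b, an astrocyte marker, had 13 UMIs against 2.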

How the data were processed

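Single cell libraries of cultured PCs, 1 per passage, were made with a 10x 3′ v3.1 kit. The deposited values are counts, that is whole numbers of UMIs per gene and barcode, which the authors made with Cell Ranger (5.0 in the submitters' processing notes, 5.0.1 per the file headers) on mm10. The annotation release is not given in the sources used here, and coordinates are those of GENCODE genes on GRCm38 matched by gene ID. Files were used as deposited, and no doublet caller was run.

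UMIs were summed over kept cells. Levels are CPM (UMIs per 1000000) with exact Poisson 95% intervals, log2 ratios carry exact conditional binomial intervals, and shares carry Clopper-Pearson intervals. A count of 0 was given a limit of 3 counts. All members of the symbol rule are named, and other genes come from the lists. Thinning drew UMIs without replacement with a fixed seed and left out 1103 PC5 and 275 PC20 cells that were too shallow. With 1 library per passage no p-value was computed. The summed-count ratio and its interval were checked on simulated libraries with 200 of 31053 genes changed by a fold of 4. All 200 came out with the right sign, and 96.5% of their intervals covered the simulated ratio. Counts were drawn with the counting error that the interval assumes, at equal depth, and the changed genes were not rare. Coverage near 95% was thus set in advance, which checks the calculation and not the spread between cells or cultures. Python 3.11.15, numpy 2.4.6, scipy 1.17.1 and pandas 2.3.3 were used. The members and gene lists were chosen with earlier results of these data known. The motifs, the printed stretches, the 1.5-fold window of like genes and the setting without shared barcodes were chosen after seeing the data. Alternatives covered the cell filter, cycling cells, depth, library size, cell weight, fold threshold, detection minimum and pseudocount.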

Additional observations from a re-analysis of the deposited data

Results flagged for a closer look

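A few members differed with the state of the cell in opposite directions in the 2 libraries, by log2 ratios whose counting intervals lay on opposite sides of 0. In each case the difference between the libraries was not tested. The cases were picked from all 24 members and every state. The intervals leave out the spread between cells, which was wider than counting error. The variance over the mean was 7.35 in PC5 and 3.19 in PC20 for S100a10, and 4.99 and 3.66 for S100a4. The small differences below may therefore lie within that spread. S100a3 was higher in cycling than in other cells of PC5 (0.75) and lower in those of PC20 (-0.49). Its UMIs were few in thinned PC5 cells, 81 in cycling and 87 in other cells. S100a10 was slightly lower in cycling cells of PC5 (-0.080) and slightly higher in those of PC20 (0.033). S100a4 was higher in cells with a Cdkn1a UMI in PC5 (0.16) and lower in PC20 (-0.083), and Anxa5 showed the same order, 0.077 and -0.068.

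The barcodes that the cell filter left out also held UMIs of both families. In the 679 left out of PC5, S100A genes summed to 29287 CPM, above the 16533 CPM of kept cells, and annexins to 2611 CPM, above 2117. Among these, S100a11 was at 4055 CPM against 1452 in kept cells. In the 135 left out of PC20, S100A genes summed to 4492 CPM, below the 5781 CPM of kept cells, and annexins to 2075 CPM, below 2846. The left-out barcodes of PC5 also held 1 UMI of Anxa10, a gene at 0 in the kept cells.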

How the results depend on the processing

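With 1 library per passage, neither biological nor technical spread between cultures could be measured, and depth limits the rare members such as S100a2 and S100a14. No paired analysis was possible because each passage has 1 library and the labels carry no replicate numbers. Over 9 alternatives that recompute the ratio, none of 144 log2 ratios of the 16 expressed members changed sign. Much of this count was fixed in advance. The changed library sizes and the centring on the median gene shift all genes alike, by at most 0.034. The strict filter, every barcode and the setting without shared barcodes moved no ratio by more than 0.017. The smallest main ratio in size was that of Anxa2, at -0.48, so these settings say little. The largest shift, 0.46, was that of S100a3 in cells with no Mki67 or Top2a UMI. Counts of calls moved by over 1.5 times under 2 settings. With a log2 threshold of 0.5 in place of 1, 10 members in place of 4 were higher in PC5, and with a pseudocount of 1 on UMIs per 10000, 2 were higher in PC5 and 3 in place of 5 in PC20, since such a pseudocount shrinks the ratios of low genes by construction. When cells needed over 2000 genes and less than 10% mitochondrial UMIs, 3 were called higher in PC5, as S100a11 had a log2 ratio of 0.99. In thinned cells, and with 10% of cells asked of both libraries, 4 were called higher in PC20, as S100a3 was left out. With a minimum of 1% of cells, 20 members passed and 6 were called higher in PC5. The share of all expressed genes was counted in the main setting alone. Nothing particular to the members is therefore read from the counts under other settings.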
